A study of Mus musculus with 6 samples.

Results

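The CXC chemokines are small secreted proteins that draw leukocytes along a gradient and are named for a pair of cysteines parted by a single residue. The 10 genes described here were chosen by name: Cxcl1, Cxcl2, Cxcl3, Cxcl9, Cxcl10, Cxcl11, Cxcl12, Cxcl13, Cxcl14 and Cxcl16, that is 10 of the 57010 genes in the count table. No measured value entered the choice, and all 10 had enough counts to be tested. RNA came from CD45+CD90.2- cells, immune cells depleted of T cells, sorted from the hearts of mice of the genotype labelled Ova DTG, in which ovalbumin is expressed in the heart only. All mice, controls included, had received naive OTI cells, CD8 T cells that recognise ovalbumin. The 3 libraries labelled OTI + ICI came from mice also given immune checkpoint inhibitors, namely anti-CTLA-4 (clone 9D9) and anti-PD-1 antibody at 200 µg each, injected into the peritoneum. The 3 libraries labelled OTI + Isotype came from mice given isotype control antibody. The promoter that drives ovalbumin, the strain and age of the mice, the time of sampling, and whether a library pooled animals were not stated in the labels. Libraries are called ICI and isotype below by their labels, and every direction rests on those labels. No measured gene checks them: the libraries labelled isotype held the higher levels of interferon-inducible chemokines and monocyte markers, those labelled ICI the higher levels of resident macrophage markers. Whether the labels were exchanged cannot be settled from these data, and an exchange would reverse every direction given below.

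Cxcl1, Cxcl2 and Cxcl3 carry the residues glutamate, leucine and arginine (ELR) before the first cysteine and attract neutrophils through the receptor Cxcr2; they are classical targets of NF-kB in macrophages. Cxcl9, Cxcl10 and Cxcl11 lack ELR, are induced by interferon gamma, and attract activated T cells and natural killer cells through Cxcr3. Cxcl12, Cxcl13 and Cxcl14 are made largely by stromal cells, Cxcl13 also by some macrophages, and Cxcl16 is made as a membrane protein that binds Cxcr6 and can be shed.

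The promoters of the ELR+ genes and of Cxcl9 and Cxcl10 are shown because the levels of these genes moved in opposite directions between the groups. The sequences are RefSeq's, from the build GRCm38.p6, which is older than the build GRCm39 named in the submitters' processing notes. Windows of 300 bases, from 250 bases before to 50 bases after the annotated start, were given for 8 of the 10 members; Cxcl11 and Cxcl16 had no entry. The letters GGGAATTTCC, the match of an NF-kB pattern that these promoters share and that was picked after the sequences were seen, stood in all 3 ELR+ promoters, with the first base 71 bases before the start in Cxcl1, 97 in Cxcl2 and 73 in Cxcl3. On either strand, the same letters stood in 29 of 32851 promoters (0.0883%). The 100-base stretches are on the + strand, at chr5:90891154-90891253 for Cxcl1, chr5:90903782-90903881 for Cxcl2 and chr5:90786008-90786107 for Cxcl3, with the shared letters in capitals.
Cxcl1: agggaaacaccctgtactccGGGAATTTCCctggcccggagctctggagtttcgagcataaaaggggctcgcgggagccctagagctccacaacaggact
Cxcl2: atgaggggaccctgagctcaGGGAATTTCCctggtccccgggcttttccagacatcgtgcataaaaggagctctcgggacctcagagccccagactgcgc
Cxcl3: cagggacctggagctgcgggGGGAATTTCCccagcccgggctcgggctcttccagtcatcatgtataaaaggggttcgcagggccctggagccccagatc

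Looser patterns were searched on both strands. The NF-kB pattern, GGG then any 5 bases then CC, stood in 7 of the 8 promoters (all but Cxcl14) and in 50.8% of all promoters; it can overlap its own match on the other strand and covers GGGAATTTCC. The interferon-stimulated response pattern, GAAA then any 2 bases then GAAA, stood in 2 of the 8 (Cxcl10 and Cxcl14) and in 3.44% of all promoters. TTCNNNGAA, the gamma-activated site bound by STAT dimers, stood in 1 of the 8 (Cxcl14) and in 8.30% of all. In the windows below, on the - strand at chr5:92328030-92328329 for Cxcl9 and chr5:92348840-92349139 for Cxcl10, capitals mark each match. Those of Cxcl10 are the interferon-stimulated response pattern at 213 bases before the start and the NF-kB pattern at 159, 104 and 103 bases, the last pair overlapping. Those of Cxcl9 are the NF-kB pattern at 130 and 129 bases, which also overlap. A match is a run of letters and does not show that a factor binds there.
Cxcl9: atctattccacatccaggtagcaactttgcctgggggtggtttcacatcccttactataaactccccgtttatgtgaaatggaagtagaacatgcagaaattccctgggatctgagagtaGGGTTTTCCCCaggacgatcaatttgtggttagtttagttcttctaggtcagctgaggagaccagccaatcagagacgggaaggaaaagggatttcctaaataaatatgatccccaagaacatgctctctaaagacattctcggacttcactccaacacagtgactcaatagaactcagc
Cxcl10: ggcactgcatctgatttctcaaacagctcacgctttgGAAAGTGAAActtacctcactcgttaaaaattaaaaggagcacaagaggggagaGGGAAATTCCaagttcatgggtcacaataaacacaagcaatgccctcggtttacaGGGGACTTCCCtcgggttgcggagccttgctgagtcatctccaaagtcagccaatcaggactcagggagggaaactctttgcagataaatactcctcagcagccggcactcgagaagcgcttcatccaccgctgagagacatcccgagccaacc

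The libraries held 21528274 to 30736316 counts, and levels are given as counts scaled to a common library total (CPM, the usual unit). The resident macrophage markers summed to 8691 to 9960 CPM in the ICI libraries and 252 to 324 CPM in the isotype libraries, and the monocyte markers to 786 to 1052 CPM and 4104 to 8635 CPM. All 8 resident macrophage markers were called higher and 5 of the 6 monocyte markers lower, and these sums moved with every member described below; their part in any of the results was not tested. In bulk RNA, fewer cells of a type and less RNA per cell cannot be told apart. Of the 6 T cell markers, Cd3e, Cd3d, Cd8a and Thy1, the gene of the CD90 antigen gated out, were under 1 CPM in all 6 libraries. Cd3g was at 1.097, 0.590 and 1.068 CPM in the ICI libraries and 0.135 to 0.390 CPM in the isotype libraries, and Cd4, which some macrophages and dendritic cells also express, at 13.99, 9.66 and 19.18 CPM and 0.284 to 1.106 CPM. Both were called higher. The sample titles of both groups name myocarditis. Replicate 3 of each group carried more Xist than Y-linked counts, unlike replicates 1 and 2.

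Of the 10 CXC chemokines, 6 were higher and 4 lower in the ICI libraries by the quasi-likelihood test of edgeR, called at a Benjamini-Hochberg adjusted p under 0.05 over all genes. Cxcl1, Cxcl2, Cxcl3, Cxcl12, Cxcl13 and Cxcl14 rose, and Cxcl9, Cxcl10, Cxcl11 and Cxcl16 fell. Most of the transcriptome differed as well: 68.9% of the 14575 genes tested were called, 35% higher and 33.9% lower. The groups did not overlap in CPM for any of the 10 members, against 73.5% of all genes tested. The median log2 fold change was 1.51 over the members and 0.03 over all genes tested. The scaling moves that last value to 0.21 with upper-quartile factors and 0.23 with library totals alone, where the split of all calls was 6155 higher and 3849 lower, and 6255 and 3724, instead of 5102 and 4938. The directions of the 10 members and their calls were the same under these scalings.

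**Figure D1:**
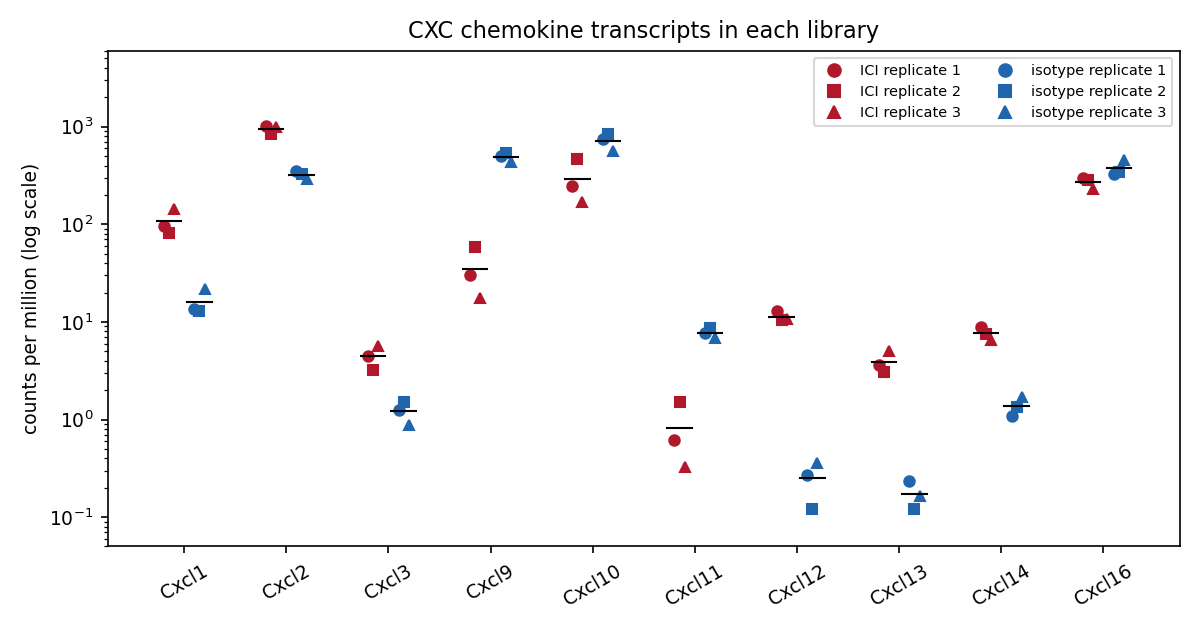
Level of each CXC chemokine in each library, in CPM on a log axis. Points are libraries, marker shapes are replicates, red is ICI, blue is isotype and black bars are group means. No member's groups overlap, and Cxcl9, Cxcl10, Cxcl11 and Cxcl16 are the members that sit lower in red.

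The family here means the 10 chosen genes. Its summed level was slightly lower in every ICI library than in any isotype library, and its makeup differed far more than its sum. Pf4, a CXC ligand outside the 10, was at 505, 408 and 550.3 CPM in ICI replicates 1, 2 and 3. In the isotype libraries it was at 5.55, 5.15 and 7.68 CPM. Adding Pf4 would put every ICI sum above every isotype sum, so the order holds for the 10 genes only. The 10 genes together reached 1709, 1754 and 1574 CPM in ICI replicates 1, 2 and 3 and 1948, 2072 and 1779 CPM in isotype replicates 1, 2 and 3. The ELR+ members made up 1112, 928 and 1135 CPM in the ICI libraries and 369, 341 and 314 CPM in the isotype libraries. The other 7 members made up 597, 826 and 439 CPM in the ICI libraries and 1579, 1731 and 1465 CPM in the isotype libraries. Hence the ratio of ELR+ to ELR- counts was 1.86, 1.12 and 2.59 in the ICI libraries and 0.233, 0.197 and 0.214 in the isotype libraries, above 1 in each ICI library and below 1 in each isotype library. This ratio is a description and was given no test, since it is a score over the members.

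Cxcl2 alone held 56.6% ± 7.58 of the family's counts in the ICI libraries and 16.8% ± 1.25 in the isotype libraries (SD, n = 3 each, here and below). Cxcl10 held 17.2% ± 8.15 and 37.0% ± 4.72, Cxcl9 held 2.06% ± 1.13 and 25.2% ± 0.719, and Cxcl16 held 16.0% ± 1.40 and 19.6% ± 5.25. A single neutrophil attractant therefore gave most family counts in ICI replicates 1 and 3. Cxcl9 and Cxcl10 together gave most in every isotype library. The majority of Cxcl2 holds for the chosen genes only. Pf4, outside the family, was at 505 and 550.3 CPM in ICI replicates 1 and 3. With Pf4 counted, Cxcl2 would not hold a majority in either library.

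**Figure D2:**
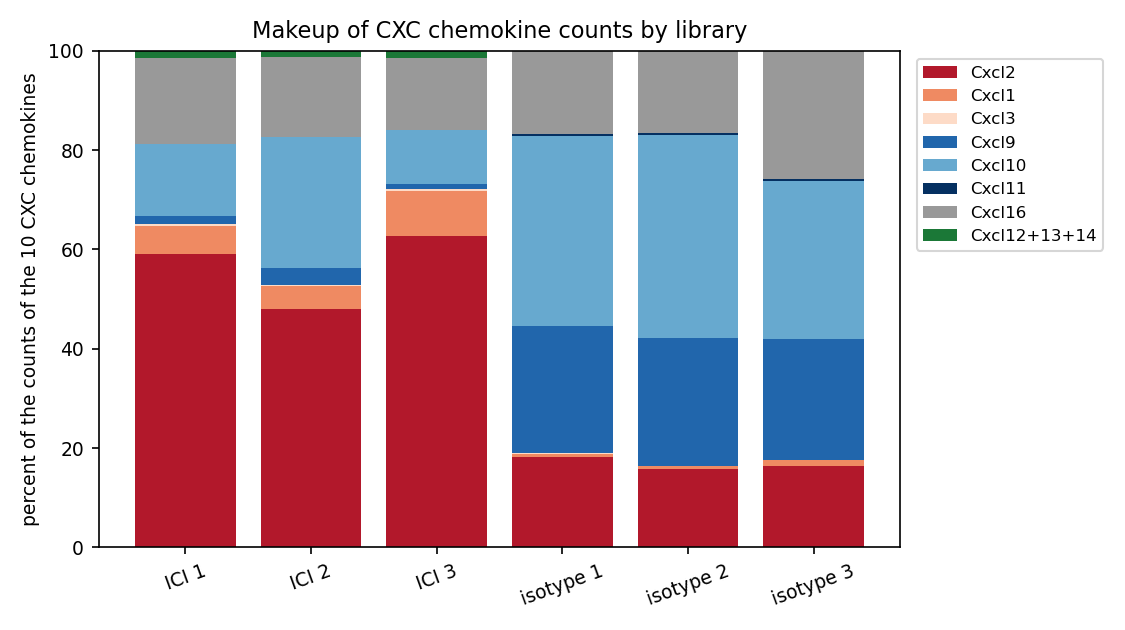
Makeup of the family by library: stacked bars give each gene's percent of the counts of the 10 CXC chemokines, from 0 to 100. Red shades are the ELR+ genes, blue shades the interferon-inducible genes, grey Cxcl16 and green the sum of Cxcl12, Cxcl13 and Cxcl14; Cxcl2 takes 48.1% to 62.6% of an ICI library and 15.7% to 18.2% of an isotype library.

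Levels of different genes were compared per kilobase of exon, as CPM per kilobase. In the ICI libraries Cxcl2 stood first at 458 ± 43.7, clear of Cxcl10 at 130.0 ± 67.4. Cxcl10 overlapped Cxcl16 at 89.1 ± 11.8, and Cxcl16 overlapped Cxcl1 at 57.2 ± 17.6. Cxcl9 followed at 11.7 ± 6.88 without overlap. The remaining members were at or below 4.17 CPM per kilobase: Cxcl14 and Cxcl13 overlapped each other, as did Cxcl12 and Cxcl3, and Cxcl11 was last at 0.216 ± 0.164.

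In the isotype libraries the order was another. Cxcl10 stood first at 320.0 ± 63.7 CPM per kilobase, clear of Cxcl9 at 162 ± 16.5. Cxcl9 overlapped Cxcl2 at 157 ± 15.1, and Cxcl2 overlapped Cxcl16 at 124 ± 23.8. Below them Cxcl1 was at 8.60 ± 2.60, then Cxcl11, Cxcl14, Cxcl3, Cxcl13 and Cxcl12, each without overlap with the next. Cxcl12 was last at 0.0306 ± 0.0146. Cxcl9 thus stood above Cxcl2 in mean level in the isotype libraries and far below it in the ICI libraries.

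**Figure D3:**
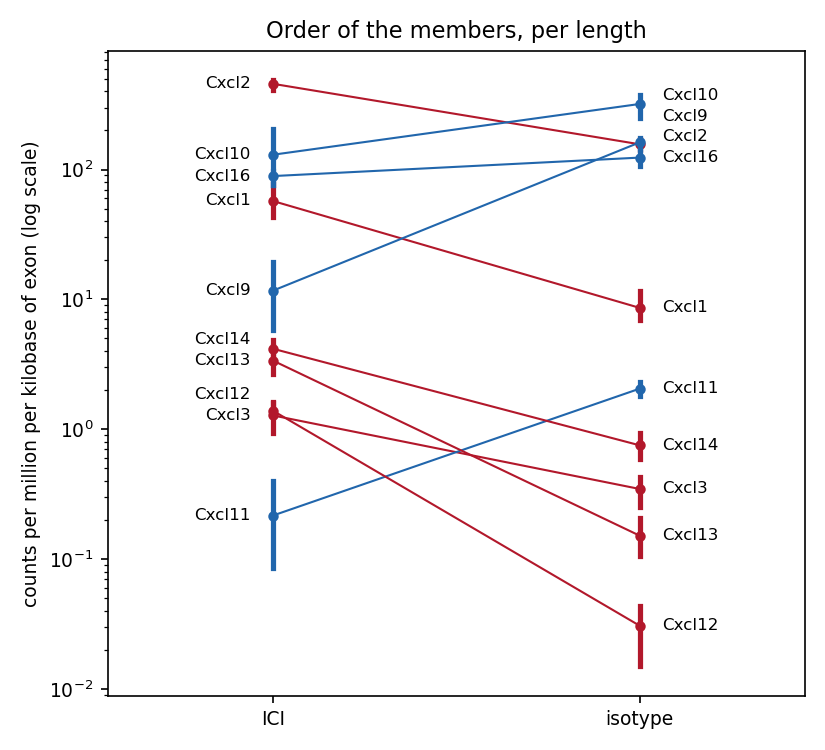
Mean level of each member in CPM per kilobase of exon, on a log axis, in the ICI (left) and isotype (right) libraries. Points are means, thick bars run from the lowest to the highest library, red lines join members that are higher in ICI and blue lines members that are lower; Cxcl2 leads on the left at 458 and Cxcl10 on the right at 320.0.

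The ELR+ neutrophil attractants were all higher in the ICI libraries. Cxcl1 was at 96.3, 81.2 and 144 CPM in ICI replicates 1, 2 and 3 and at 13.6, 13 and 21.7 CPM in isotype replicates 1, 2 and 3. Replicate 3 was the highest of its group in both, and the lowest ICI library stood far above the highest isotype library. Cxcl1 (ENSMUSG00000029380) was 5.76-fold higher (log2 fold change 2.53, SE 0.28, edgeR adjusted p = 0.000278).

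Cxcl2, the most abundant of the family in the ICI libraries, was at 1011, 843 and 985 CPM there and at 354, 326 and 291 CPM in the isotype libraries. Its libraries lay close together within each group. Cxcl2 (ENSMUSG00000058427) was 2.54-fold higher (log2 fold change 1.34, SE 0.11, edgeR adjusted p = 4.2e-06). Cxcl3 was rare, with 103, 77 and 121 counts (4.52, 3.25 and 5.62 CPM) in the ICI libraries and 37, 37 and 27 counts (1.25, 1.5 and 0.878 CPM) in the isotype libraries. Cxcl3 (ENSMUSG00000029379) was 3.22-fold higher (log2 fold change 1.69, SE 0.28, edgeR adjusted p = 0.000441). Of the 31-base words of Cxcl3 transcripts 4.56% also occur in Cxcl2, whose counts were far higher, so part of the Cxcl3 counts is uncertain; Cxcl1 shared none with either.

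Several measures moved with these genes. The list of 12 early-response and chaperone genes, known to be switched on when tissue is digested, summed to 21290 to 27640 CPM in the ICI libraries and 6858 to 7333 CPM in the isotype libraries, and 12 of 12 were called higher. The 8 neutrophil markers summed to 509 to 559 CPM and 381 to 473 CPM, with 4 called higher and 1 lower. Ly6g, which defines mature neutrophils, was at 0.219, 0.717 and 0.511 CPM in the ICI libraries and 0.779, 1.18 and 0.976 CPM in the isotype libraries. The part of these in the rise of Cxcl1, Cxcl2 and Cxcl3 was not tested.

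Genes upstream of the ELR+ members were mixed. Of 15 genes of NF-kB, interleukin-1, TNF and interleukin-17 signalling, 6 were higher, 5 lower and 4 not called. These counts lie near the shares over all genes tested, 35% higher and 33.9% lower. The median of the 15 was 0.14 on the log2 scale. The 5 lower calls became 3 with upper-quartile factors, with library totals alone, with the strict filter, or without ICI replicate 2 or isotype replicate 1 or 2. Nfkbiz, a nuclear IkB protein that switches on a subset of NF-kB targets, was at 1548, 1550 and 1471 CPM against 198, 184 and 211 CPM (edgeR adjusted p = 1.82e-08). The NF-kB subunit gene Rel rose 2.76-fold and the inhibitor gene Nfkbia 1.91-fold, both with no overlap. Tnf rose as well, at 262, 294 and 281 CPM against 123, 131 and 108 CPM. Il1b, a strong inducer of Cxcl1 and Cxcl2 in many cells, went the other way, at 910, 834 and 668 CPM against 1020, 1175 and 774 CPM. The groups overlapped for Il1b, and its call (edgeR adjusted p = 0.043) was lost in 9 of 16 alternatives, over which the adjusted p ran from 0.00254 to 0.678. The other lower calls were Il1a, 2.84-fold lower (edgeR adjusted p = 0.00016), Myd88, 1.49-fold, Irak2, 1.43-fold, and Il17ra, 1.23-fold. The groups overlapped for Il17ra but not for Il1a, Myd88 or Irak2. A test of changes beyond 1.5-fold kept 1 lower call of the list.

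Proteins that bind or degrade AU-rich and stem-loop messages such as those of Cxcl1, Cxcl2 and Cxcl3 form a list of 6. Of these, 5 were higher, 0 lower and 1 (Elavl1) not called, against 35% higher and 33.9% lower of all genes tested. At an unadjusted p under 0.05 the count of lower genes was also 0, and it was 0 by DESeq2 and limma-voom. Fewer of the list were called higher with libraries left out, where up to 1 was called lower, and in a test of changes beyond 1.5-fold. Zfp36, tristetraprolin, which speeds the decay of such messages, was at 3174, 2442 and 2653 CPM against 1187, 1248 and 1267 CPM, 1.94-fold higher (edgeR adjusted p = 5.14e-05). Its relatives Zfp36l1 and Zfp36l2 were 2.64-fold and 1.27-fold higher and Arid5a, which stabilises some of these messages, 1.66-fold. The call of Zfp36l2 was lost without isotype replicate 1 (edgeR adjusted p = 0.0547; range over the alternatives 0.000537 to 1), where 3 of the list were called higher.

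The interferon-inducible ligands of Cxcr3 were all lower in the ICI libraries. Cxcl9 was at 30.1, 58.0 and 17.5 CPM in ICI replicates 1, 2 and 3 and at 499, 532 and 434 CPM in isotype replicates 1, 2 and 3. The isotype libraries differed by at most 1.23-fold among themselves, the ICI libraries by 3.32-fold. Cxcl9 (ENSMUSG00000029417) was 15.9-fold lower in ICI (log2 fold change -3.99, SE 0.51, edgeR adjusted p = 0.00136), the largest fall of the 10 members.

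Cxcl10, which is also induced by type I interferon and by NF-kB, was at 246, 462 and 170 CPM in the ICI libraries and at 746, 849 and 566 CPM in the isotype libraries. ICI replicate 2 came near the lowest isotype library. Cxcl10 (ENSMUSG00000034855) was 2.82-fold lower (log2 fold change -1.50, SE 0.43, edgeR adjusted p = 0.0277). The gene lost its call without ICI replicate 1 (adjusted p = 0.0815), without isotype replicate 1 (0.0656) or 2 (0.0843), on unfiltered counts (0.0697) and in a test of changes beyond 1.5-fold (0.0763), and the edgeR adjusted p ran from 0.000373 to 0.0843 over the alternatives. Exons of Art3 on the opposite strand cover 5.91% of the exon bases of Cxcl10; Art3 had 92 counts over the ICI libraries and 125 over the isotype libraries.

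Cxcl11 had 14, 36 and 7 counts (0.614, 1.52 and 0.325 CPM) in the ICI libraries and 229, 216 and 210 counts (7.75, 8.76 and 6.83 CPM) in the isotype libraries. RefSeq lists it as a transcribed pseudogene in the reference mouse, so these counts may not stand for a protein. Cxcl11 (ENSMUSG00000060183) was 10.6-fold lower (log2 fold change -3.41, SE 0.36, edgeR adjusted p = 3.09e-05). Leaving out ICI replicate 2 made the fall 18.7-fold. The libraries carry no strand; the pseudogene Gm2673, annotated opposite 41.7% of its exon bases, had 5 counts in the ICI libraries and 0 in the isotype libraries.

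Within each group the 3 genes kept company. Among the ICI libraries replicate 2 was the highest and replicate 3 the lowest for Cxcl9, Cxcl10 and Cxcl11, and the same held among the isotype libraries. The monocyte marker sum had this order too, at 900.4, 1052 and 786 CPM in ICI replicates 1, 2 and 3 and 6676, 8635 and 4104 CPM in isotype replicates 1, 2 and 3; its part in the order was not tested. Irf1 and Socs1, other targets of interferon gamma, also had their highest ICI value in replicate 2 and their lowest in replicate 3, at 982, 1246 and 786 CPM and at 48.7, 78.4 and 44.6 CPM. In the isotype libraries Irf1 had the same order, at 1260, 1317 and 1129 CPM, whereas Socs1 was highest in replicate 1, at 162 CPM, and lowest in replicate 3, at 145 CPM. Replicate 3 was also the library of each group with more Xist than Y-linked counts, and the part of this in the orders was not tested. With 3 libraries a group these orders are a description.

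**Figure D4:**
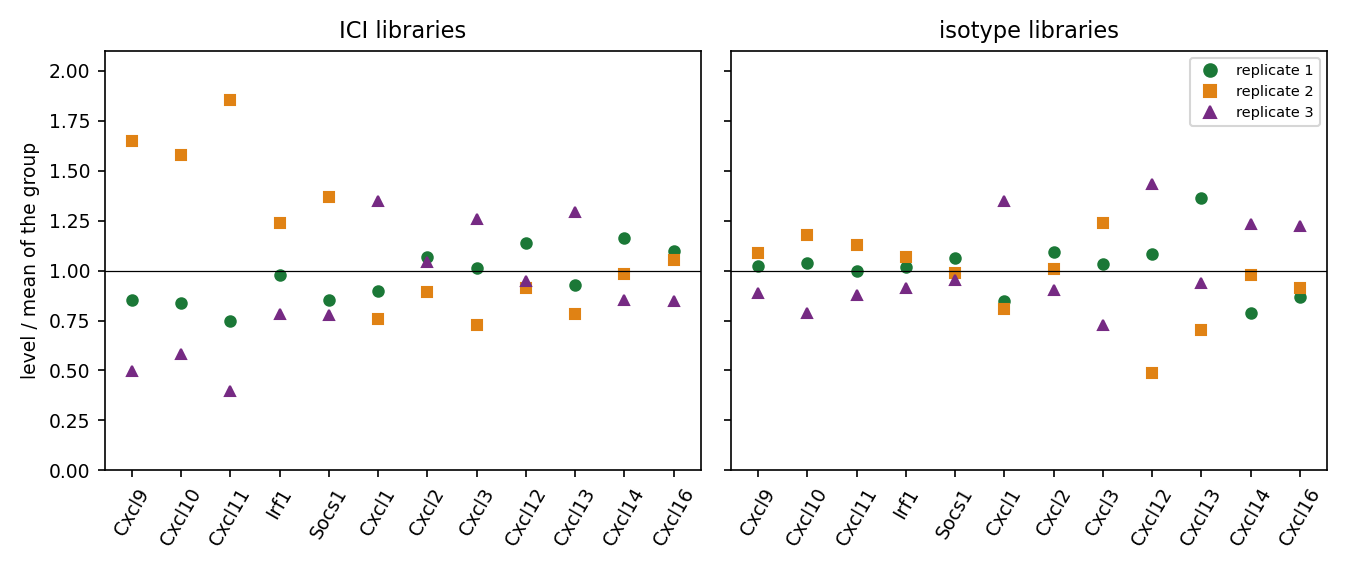
Spread within each group: each point is a library's level divided by the mean of its group, for the ICI libraries (left) and the isotype libraries (right), with 1 colour and marker for each replicate number. In the ICI libraries Cxcl9, Cxcl10 and Cxcl11 run from replicate 3 at 0.397 to 0.581 of the mean to replicate 2 at 1.58 to 1.85, whereas Cxcl2 stays within 0.891 to 1.07.

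The ligand that induces these genes went the other way. Ifng had 31, 33 and 36 counts (1.36, 1.39 and 1.67 CPM) in the ICI libraries and 11, 12 and 23 counts (0.372, 0.487 and 0.748 CPM) in the isotype libraries, in cells from which T cells had been removed, and was 2.36-fold higher in ICI (edgeR adjusted p = 0.00632). Of the 10 genes of interferon gamma signalling reported here 4 were higher (Ifng, Ifngr1, Jak1 and Irf9), 5 lower (Ifngr2, Jak2, Irf1, Irf8 and Socs1) and 1 not called (Stat2). Of all genes tested, 35% were higher and 33.9% lower. The groups overlapped for Irf1 (edgeR adjusted p = 0.0292). The 5 lower calls of the list became 4 with upper-quartile factors, with library totals alone or with no filter. The receptor chain Ifngr1 rose 1.75-fold while its partner Ifngr2 fell 1.60-fold. Irf8, a myeloid interferon regulatory factor, fell 2.19-fold and Irf9, a subunit of the type I interferon complex, rose 1.81-fold, both without overlap. The natural killer markers, a possible source of Ifng, summed to 58.8 to 93.1 CPM in the ICI libraries and 19.8 to 26.8 CPM in the isotype libraries, and 5 of 5 were called higher. The 6 T cell markers summed to 11.0 to 21.3 CPM and 1.014 to 2.863 CPM, with 2 called higher (Cd4 and Cd3g) and the other 4 under 1 CPM in all libraries. The part of either in the level of Ifng was not tested.

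Cxcl12, Cxcl13 and Cxcl14 were scarce in both groups and higher in ICI. Cxcl12, the ligand of Cxcr4 that holds leukocytes in tissue and marrow, had 294, 246 and 232 counts (12.9, 10.4 and 10.8 CPM) in the ICI libraries and 8, 3 and 11 counts (0.271, 0.122 and 0.358 CPM) in the isotype libraries. The pooled counts gave a ratio of 43.8 (exact 95% binomial interval 28.7 to 70.3), which covers counting error only. Cxcl12 (ENSMUSG00000061353) was 37.6-fold higher (log2 fold change 5.23, SE 0.28, edgeR adjusted p = 2.90e-07), the largest rise of the 10 members.

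Cxcl13, which guides B cells through Cxcr5, had 82, 72 and 108 counts (3.60, 3.04 and 5.02 CPM) in the ICI libraries and 7, 3 and 5 counts (0.237, 0.122 and 0.163 CPM) in the isotype libraries, a ratio of 21.8 (95% interval 13 to 39.5). Cxcl13 (ENSMUSG00000023078) was 18.6-fold higher (log2 fold change 4.22, SE 0.37, edgeR adjusted p = 6.21e-06). Cxcl14, a chemokine of epithelia and stroma whose receptor is not settled, had 202, 177 and 140 counts (8.86, 7.46 and 6.5 CPM) against 32, 33 and 52 counts (1.08, 1.34 and 1.69 CPM). Cxcl14 (ENSMUSG00000021508) was 4.82-fold higher (log2 fold change 2.27, SE 0.23, edgeR adjusted p = 1.43e-05).

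Stromal RNA moved with them. The 8 fibroblast markers summed to 205, 68.1 and 70.1 CPM in ICI replicates 1, 2 and 3 and to 11.0, 11.6 and 15 CPM in the isotype libraries, and 7 of 8 were called higher. The endothelial markers summed to 36.7 to 49.9 CPM and 21.9 to 31.6 CPM, and the pericyte and smooth muscle markers to 18.3 to 27.4 CPM and 2.88 to 3.94 CPM, with 5 of 8 and 6 of 6 called higher. No marker of the fibroblast or pericyte lists was under 1 CPM in all libraries. Among the ICI libraries the fibroblast and pericyte sums, Cxcl12 and Cxcl14 were all highest in replicate 1, and Cxcl13 was highest in replicate 3. That rank is not particular to stromal RNA. The resident macrophage sum, at 9960, 8691 and 9480 CPM in ICI replicates 1, 2 and 3, was highest in replicate 1 too. So was the early-response and chaperone sum, at 27640, 21290 and 23600 CPM. The part of any of these in the rises of Cxcl12, Cxcl13 and Cxcl14 was not tested.

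Cxcl16 was abundant in both groups and had the smallest difference of the 10. It was at 296, 283 and 228 CPM in the ICI libraries and 324, 340.0 and 456 CPM in the isotype libraries, so the highest ICI library lay just below the lowest isotype library. Cxcl16 (ENSMUSG00000018920) was 1.59-fold lower in ICI (log2 fold change -0.67, SE 0.15, edgeR adjusted p = 0.00351), a call that a test of changes beyond 1.5-fold did not keep (adjusted p = 0.25, the alternatives spanning 4.05e-05 to 0.25). The exons of Zmynd15 on the opposite strand cover 18.3% of its exon bases; Zmynd15 had 2411 counts over the ICI libraries and 2402 over the isotype libraries. Adam10 and Adam17, proteases that shed Cxcl16 and other membrane proteins, were 1.32-fold and 1.52-fold lower. The groups overlapped in CPM for Adam10. Adam17 did not overlap but lost its call in 1 of 16 alternatives, with an adjusted p up to 0.362.

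The list of 10 proteases and anchors that cut or hold chemokines was mixed, with 5 higher, 3 lower and 2 not called. The shares over all genes tested were 35% higher and 33.9% lower. Mmp14, a membrane protease that can cleave Cxcl12, was at 35.1, 23.7 and 25.6 CPM against 286, 320.3 and 289 CPM, 12.2-fold lower in ICI (edgeR adjusted p = 3.11e-07). The macrophage elastase gene Mmp12, whose product can cut the ELR+ chemokines, was at 163, 147 and 139 CPM against 73.3, 67.2 and 79.7 CPM. Mmp2, another protease acting on Cxcl12, was 8.01-fold higher and 5.33-fold higher without ICI replicate 1, the library with most fibroblast RNA. The 5 higher calls were 3 without isotype replicate 2.

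Among the CXC ligands outside the 10, Pf4 and Ppbp stood out. Both are stored in platelets, and Pf4 is also made by resident macrophages. Pf4 was at 505, 408 and 550.3 CPM in the ICI libraries and 5.55, 5.15 and 7.68 CPM in the isotype libraries, which puts it above 9 of the 10 members' mean CPM in ICI. Ppbp had 99, 131 and 224 counts in the ICI libraries and 1 count in the isotype libraries, in replicate 1, a ratio of 567 (exact 95% binomial interval 101 to 22440). The 6 platelet markers summed to 6.36 to 9.94 CPM in the ICI libraries and 1.56 to 2.76 CPM in the isotype libraries. Most of the ICI sum was Itgb3, an integrin chain that other cells also make, at 5.53, 5.06 and 8.55 CPM against 0.440, 1.014 and 0.944 CPM, 6.94-fold higher (edgeR adjusted p = 3.16e-05). Gp6 was not called and was at or below 1.217 CPM, and Itga2b, Gp9, Gp1bb and Treml1 were under 1 CPM in all 6 libraries. The part of platelet RNA in the levels of Pf4 and Ppbp was not tested. Cxcl5, an ELR+ chemokine, had 0 counts in the ICI libraries and 3, 3 and 6 in the isotype libraries. That is 3.20-fold lower over the group with 3 counts taken as the floor, and the exact 95% binomial interval starts at 2.23-fold lower. Cxcl15 had 0 counts in every library, where 3 counts would be 0.0976 to 0.139 CPM, and Cxcl17 had 3 counts in all; these 3 genes were too low to test.

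The receptors were compared in the same fit. Of 8 receptor genes 6 could be tested, and 5 of these were higher and 0 lower in ICI. Of all genes tested, 35% were higher and 33.9% lower. All 6 had a positive log2 fold change by edgeR, DESeq2 and limma-voom, so no threshold of p could give a lower call. Cxcr2, the receptor of the ELR+ members, was at 32.4, 32.1 and 33.5 CPM against 18.8, 19.6 and 15 CPM, 1.59-fold higher (edgeR adjusted p = 0.000716), a call that a test of changes beyond 1.5-fold did not keep (adjusted p = 0.201, the alternatives spanning 1.17e-05 to 0.201). Cxcr3, the receptor of Cxcl9, Cxcl10 and Cxcl11, was at 9.87, 4.93 and 7.43 CPM against 3.25, 3.61 and 6.15 CPM. The groups overlapped for Cxcr3 and it was not called (log2 fold change 0.57, SE 0.31, edgeR adjusted p = 0.135). It was called without ICI replicate 2 (adjusted p = 0.0367), without isotype replicate 3 (0.0294) and without replicate 3 of both groups (0.0355), within a range of 0.0294 to 0.539.

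Cxcr4, the receptor of Cxcl12, was at 44.9, 46.5 and 68.0 CPM against 18.1, 17.6 and 28.4 CPM, 2.15-fold higher (edgeR adjusted p = 0.00249), and Ackr3, which scavenges Cxcl12, had 92, 25 and 54 counts against 3, 5 and 7 (edgeR adjusted p = 0.00105). Cxcr5, the receptor of Cxcl13 on B cells, was at 20, 27.7 and 63.7 CPM against 0.508, 0.892 and 1.27 CPM, 35.6-fold higher, and 23.6-fold higher without ICI replicate 3 (edgeR adjusted p = 0.000976 with all libraries). The B cell markers summed to 196, 253 and 671 CPM in the ICI libraries and 3.89, 4.87 and 8.72 CPM in the isotype libraries, so Cxcr5 and these markers were highest in the same library of each group; their part in the level of Cxcr5 was not tested. Cxcr6, the receptor of Cxcl16, was at 1.80, 1.35 and 2.04 CPM against 0.440, 0.406 and 0.521 CPM, 3.25-fold higher (edgeR adjusted p = 0.000766). Cxcr1 had 11 counts in the ICI libraries and 2 in the isotype libraries, and Ackr1, a decoy receptor of endothelium and red cells, had 0 in all.

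**Figure D5:**
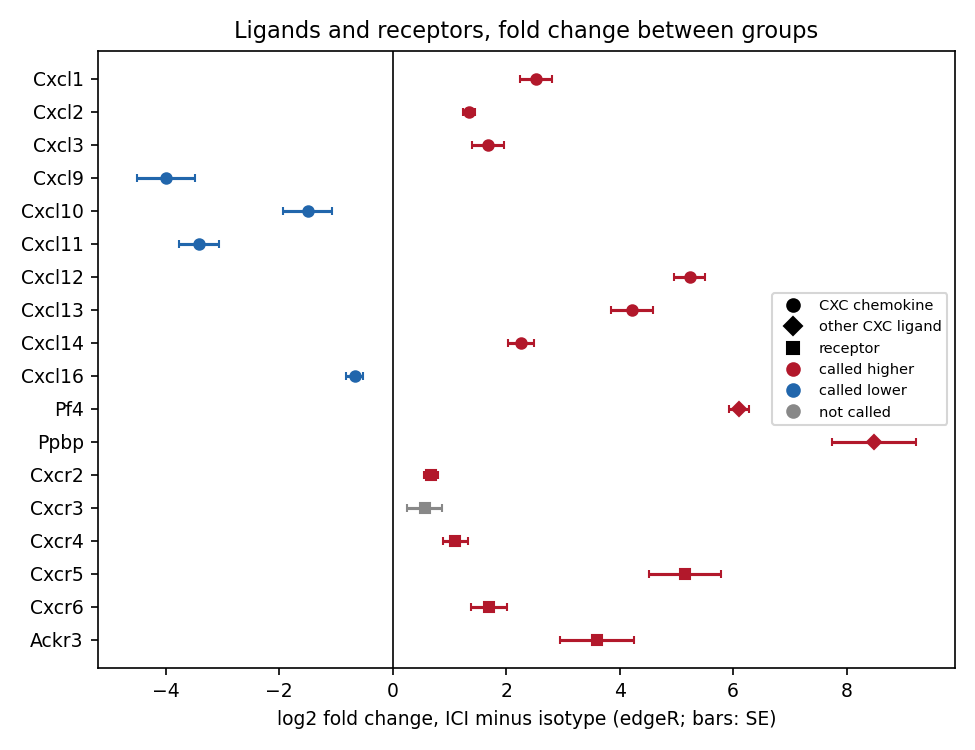
Log2 fold change of each tested ligand and receptor, ICI minus isotype, with SE as bars. Circles are the 10 CXC chemokines, diamonds other CXC ligands and squares receptors; red is called higher, blue called lower and grey not called, and Cxcr3 is the only grey point, at 0.57.

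Ligands and their receptors were thus higher together for Cxcl1, Cxcl2 and Cxcl3 with Cxcr2, for Cxcl12 with Cxcr4, and for Cxcl13 with Cxcr5. The call of Cxcr2 was not kept in the test of changes beyond 1.5-fold. Cxcl16 was lower and Cxcr6 higher, and Cxcl9, Cxcl10 and Cxcl11 were lower while Cxcr3 was not called. Of the 8686 genes whose mean reached 10 CPM, those whose log2 CPM, centred on the gene's mean, lay nearest to that of Cxcl12 over the 6 libraries were Wtip (root mean square difference 0.128), Jup (0.153) and Agmo (0.155). Those nearest to Cxcl9 were Il18bp (0.143), which encodes an antagonist of interleukin-18, Calhm6 (0.15) and Ly6i (0.185). With 2 groups of 3 libraries, this likeness rests mostly on the difference between the groups.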

How the data were processed

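Whole-number counts per Ensembl gene, with no normalization, were deposited by the authors for 57010 genes and 6 libraries, with columns matched to samples through the library names that the labels give. Per the labels' protocols, the libraries were non-directional SMART-seq V4 libraries from total RNA, sequenced as read pairs. Per the submitters' processing notes, STAR 2.7.10a, Salmon 1.10.1 and the build GRCm39 were used, with no role given; the annotation release, strand setting and filters are not given there. Symbols were matched on Ensembl identifiers for 52029 genes (91.3%).

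Counts were tested with edgeR 4.0.16 (R 4.3.3; TMM factors, filterByExpr with a minimum count of 10, robust quasi-likelihood F test) over 14575 genes, with Benjamini-Hochberg adjustment; SEs were back-calculated (absolute log2 fold change over the root of F). CPM values use library totals, so a fitted fold can differ from a ratio of CPM. Exon lengths and overlaps came from GENCODE M21 (GRCm38), for which merged exons were used. Pooled low counts were given exact 95% binomial intervals. Replicates of a group differed by more than sampling noise (chi-square per degree of freedom 13.8 to 37.4). The fits were tested on simulated data in which 14080 of 14280 genes were unchanged. There edgeR called 23 of 50 genes changed 1.5-fold, 45 of 50 changed 2-fold and 50 of 50 changed 8-fold in the right direction. It made 19 false calls among the unchanged genes. In the real data 68.9% of genes were called, so the simulation does not test the scaling or the false calls in such a setting. The sample titles call the replicates biological, but whether each was a separate animal is not given, so p-values measure only the spread between these samples.

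The members, lists and tests were chosen with earlier results of these data known. Named genes were all members, receptors and other CXC ligands, and up to 4 genes with the smallest p of each upstream or processing list. Ifng, Tnf, Il1b, Nfkbiz and marker sums were named too. Irf1, Socs1, Jak1, Jak2, Stat2, Il1a, Myd88, Irak2, Il17ra, Adam10, Elavl1 and the marker genes named singly were added after their values were seen. A gene of the interferon gamma list is not reported here. Alternatives were DESeq2 1.42.0, limma-voom (limma 3.58.1), RLE and upper-quartile factors, library totals, no filter, a filter of 50 counts in 3 libraries, a replicate block, glmTreat against a 1.5-fold change, leaving out each library, leaving out replicate 3 of both groups, and levels per kilobase. The ratio of ELR+ to ELR- counts, planned with a permutation test, was described only, as were protein features, which were not analysed here.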

Additional observations from a re-analysis of the deposited data

How the results depend on the processing

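Over 16 alternative fits the 10 members gave 160 fold changes. None reversed, 154 stayed on their side of the threshold, and the 6 that did not were Cxcl10 in 5 and Cxcl16 in 1. Cxcl10 kept its fall but lost its call with no filter (log2 fold change -1.53) and against a 1.5-fold change (-1.50), and it ran from -1.99 to -1.20 when each library was left out. Cxcl16 lost its call against a 1.5-fold change (-0.67). That test left 6 members higher and 2 lower, and reduced the other calls to 2 lower in the interferon gamma list, 1 lower in the NF-kB list, 2 higher in the mRNA decay list, 2 higher and 1 lower in the processing list, and 3110 higher and 2410 lower of all genes. The NF-kB list had 3 lower with upper-quartile factors, library totals alone or the strict filter, and 3 to 6 when libraries were left out. The receptors called higher were 3 with the strict filter, which left 4 to test. With libraries left out, the mRNA decay list had 3 to 4 higher and 0 to 1 lower and the processing list 3 to 5 higher, 3 without replicate 3 of both groups. Per kilobase, the share of Cxcl16 in ICI was 11.8% and those of Cxcl2 and Cxcl9 in isotype 20.3% and 20.9%; the log2 ratio of ELR+ to ELR- counts, ICI minus isotype, was 3.04 and became 3.03, and ran from 2.76 to 3.36 with libraries left out. Beyond these constructions the cause of a change was not tested.

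By their deviations the libraries were paired weakly at most by replicate number. The correlations were 0.0595, 0.0964 and 0.156 for the same numbers and ran from -0.171 to 0.109 for different numbers. ICI replicate 2 and isotype replicate 1 correlated best with each other (0.109), not with their own number. Whether the numbers mark pairs cannot be settled from these values. With the replicate block 6 members were higher and 4 lower, as without it, and all genes gave 5079 higher and 4912 lower. Depth limits Cxcl12 and Cxcl13 in isotype, at 22 and 15 counts over the group, and Cxcl11 in ICI, at 57.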
